A study of Homo sapiens with 6 samples.

Results

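The genes described here are 10 regulators of transcription, outside the HOX family, that belong to the program switched on by MLL fusion proteins: MEIS1, PBX3, MYB, RUNX1, RUNX2, MEF2C, ZEB2, LMO2, JMJD1C and BMI1. They were chosen by symbol, and all 10 were found among the 23698 gene rows of the deposited tables. Poly(A) RNA was sequenced from MV4-11, an established human acute myeloid leukaemia line with an internal tandem duplication in FLT3 and a fusion of MLL to AFF1. Cells stably transduced by lentivirus with a short hairpin RNA that targets PRMT5, an arginine methyltransferase, gave 3 libraries, and cells transduced with a scrambled hairpin gave the other 3. Both groups therefore share the cell line, its lesions and a lentiviral hairpin vector. The labels name no separate hairpins, clones or cultures, so the spread between libraries of a group may be technical.

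In leukaemia with an MLL fusion, the fused protein keeps the DNA-targeting part of MLL and gains a partner that recruits elongation factors and the histone methyltransferase DOT1L. HOXA genes and MEIS1 are its best known targets, and MEIS1 and PBX3 proteins bind DNA together with HOXA9. The other genes encode regulators of normal development, most of them of blood cells, and several, MYB and MEF2C among them, are needed by such leukaemias for self-renewal.

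The start-site sequences below show how unlike the promoters of these genes are. They belong to the 4 genes whose knockdown and control libraries did not overlap and to RUNX2, which after MEIS1 had the largest excess in 1 of the control libraries over the others. Each is the 250 bases before the first-listed RefSeq start, build GRCh38.p14, from 5′ to 3′. Capitals mark GGGCGG (the GC box bound by the SP family, on which the study's question touches), TGTGGT (the RUNX motif) or TGACAG (the MEIS motif), on either strand.
MEIS1, chr2:66434875-66435124, plus strand: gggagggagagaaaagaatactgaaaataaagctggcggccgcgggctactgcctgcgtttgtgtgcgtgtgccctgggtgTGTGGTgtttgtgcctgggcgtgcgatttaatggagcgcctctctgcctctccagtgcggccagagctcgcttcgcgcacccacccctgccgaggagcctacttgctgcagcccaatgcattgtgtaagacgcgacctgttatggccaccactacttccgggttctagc
PBX3, chr9:125747933-125748182, plus strand: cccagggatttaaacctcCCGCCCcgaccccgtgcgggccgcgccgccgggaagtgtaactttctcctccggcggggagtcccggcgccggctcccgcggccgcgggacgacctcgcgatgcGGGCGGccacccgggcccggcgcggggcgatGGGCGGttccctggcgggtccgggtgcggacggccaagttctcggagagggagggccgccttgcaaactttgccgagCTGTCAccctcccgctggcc
MYB, chr6:135181058-135181307, plus strand: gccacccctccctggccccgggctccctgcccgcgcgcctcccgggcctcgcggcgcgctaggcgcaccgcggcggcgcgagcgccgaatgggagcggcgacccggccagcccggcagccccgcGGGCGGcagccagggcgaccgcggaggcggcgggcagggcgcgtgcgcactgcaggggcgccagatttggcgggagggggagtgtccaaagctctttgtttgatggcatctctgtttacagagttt
BMI1, chr10:22320849-22321098, plus strand: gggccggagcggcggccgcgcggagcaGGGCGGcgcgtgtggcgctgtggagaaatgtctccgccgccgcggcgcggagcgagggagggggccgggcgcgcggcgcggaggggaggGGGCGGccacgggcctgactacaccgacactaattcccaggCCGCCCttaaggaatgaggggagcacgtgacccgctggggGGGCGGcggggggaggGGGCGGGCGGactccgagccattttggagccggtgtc
RUNX2, chr6:45328080-45328329, plus strand: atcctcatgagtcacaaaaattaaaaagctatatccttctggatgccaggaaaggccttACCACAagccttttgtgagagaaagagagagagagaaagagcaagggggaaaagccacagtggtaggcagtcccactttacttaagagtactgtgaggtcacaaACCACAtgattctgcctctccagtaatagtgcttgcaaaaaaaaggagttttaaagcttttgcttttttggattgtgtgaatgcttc

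The table held a start for 9 of the 10 genes, LMO2 being the one without an entry. A GC box was found in 4 of these 9 windows and in 42.3% of the 27303 first-listed windows of all genes. The capitals in the BMI1 window are 6 GC boxes, of which 2 overlap, and the MYB window holds 1. In the PBX3 window they are 3 GC boxes and 1 MEIS motif, a motif found in 13.1% of all windows. The MEIS1 window has 1 RUNX motif and the RUNX2 window has 2, where 10.9% of all windows have any. TGATTNAT, a joint PBX and HOX motif, was in 0 of the 9 windows and in 2.6% of all. AACTG, a MYB core, was in 2 windows (34.3% of all) and CACCTG, an E-box bound by ZEB factors, in 1 (17.5%). G and C made up 59.6% of the MEIS1 window, 75.6% of those of PBX3 and MYB, 76.8% of that of BMI1 and 41.6% of that of RUNX2, against a median of 58.0% over all windows. These matches describe letters only.

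The libraries held 16408484 to 19077106 estimated counts, and 13668 genes were tested. PRMT5 itself was at 103, 71.6 and 52.99 CPM (counts relative to library size after TMM scaling) in knockdown 1 to 3 and at 133 and 158 CPM in controls 1 and 3. The library whose label is scrambled control, number 2, held 53.2 CPM, a knockdown-like value that goes against its label; it is called the library labelled control 2 below. PRMT5 had a log2 difference of −0.60 between the groups, and of −0.94 when that library was left out. That library also stood apart over all genes: its log2 CPM correlated with those of the other 5 libraries at 0.876 to 0.923, while the other 5 correlated with one another at 0.952 to 0.995. Differences between the groups are therefore given with and without it below. Myeloid identity was checked with 10 marker genes, all of which passed the count filter and which summed to 1896 to 2788 CPM per library. Of these 10, 6 were lower and 4 higher in the knockdown libraries, and none passed. CD33 was at 43.9 to 53.8 CPM and SPI1 at 121 to 158 CPM, and LYZ, the lysozyme gene, was at 35.3 CPM in the library labelled control 2 against 430 to 1268 CPM elsewhere. Some other myeloid markers were highest in that library. ITGAM, an integrin gene, was at 115.3 CPM against 16.4 to 85.2 elsewhere, and CD68 at 138.6 against 83.6 to 109. PTPRC, which encodes CD45, was at 380.2 against 186.5 to 344. MPO, also among the 10, was lowest there, with 213 counts against 1083 to 8859 elsewhere, the most in control 1. FLT3 was at 435.8 CPM there, inside the range of 282.7 to 515.1 elsewhere. Of 15 markers of T, B, erythroid, megakaryocytic, epithelial and fibroblast cells, 7 had no count in any library. The sum of these 15 markers was 249 to 380 counts in the knockdown and 228 to 528 counts in the control libraries, most of it KRT18. COL1A1, a fibroblast collagen gene, had 77.2 counts in the library labelled control 2 and at most 5.96 in any other. The part of these marker differences in the results below was not tested.

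None of the 10 regulators passed the test between knockdown and control, and none of all 13668 genes did (0% called; edgeR quasi-likelihood test, Benjamini-Hochberg adjustment, threshold 0.05). In such bulk RNA, fewer cells of a kind and less RNA per cell cannot be told apart. Adjusted p-values of the 10 genes lay between 0.926 and 0.987. An unadjusted p under 0.05 was reached by 242 genes (1.77%) in edgeR, by 461 in DESeq2 and by 117 in limma-voom. MEIS1 was the only one of the 10 among the 242 of edgeR, at rank 138. Its unadjusted p was 0.0394 in edgeR, 0.0185 in DESeq2 and 0.0757 in limma-voom. In edgeR it was 0.112 without the library labelled control 2 and 0.12 without knockdown 2. By sign alone, 7 of the 10 were lower and 3 higher in the knockdown libraries, where 50.1% of all tested genes were lower and 49.9% higher. Their median log2 difference was −0.24, against −0.00069 over all tested genes, and it was −0.125 without the library labelled control 2. It was −0.138 without knockdown 2, −0.45 without knockdown 3 and −0.041 without both libraries numbered 2. Together the 10 genes took 2248, 1909 and 2213 CPM in knockdown 1 to 3. In the libraries labelled control 1 to 3 they took 2254, 2178 and 2263 CPM.

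For 4 of the 10 genes the 3 knockdown and 3 control libraries did not overlap, against 6.24% of all tested genes. MEIS1, PBX3 and BMI1 were on the lower side (3.10% of all genes) and MYB on the higher side (3.14%). The gap between the nearest libraries of the groups was small: 8.57% of the level for MEIS1, 3.26% for BMI1, 0.7% for MYB and 0.246% for PBX3. For MEIS1 and MYB the groups stayed apart under TMM, RLE, upper quartile and total-count scaling. Those of PBX3 overlapped under RLE scaling, and those of BMI1 under total counts. When the library labelled control 2 was left out, the same 4 genes had groups that did not overlap, as did 10.3% of all tested genes. Apart from rescaling, groups already apart stay apart when a library is left out, so this result was fixed in advance.

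**Figure D1:**
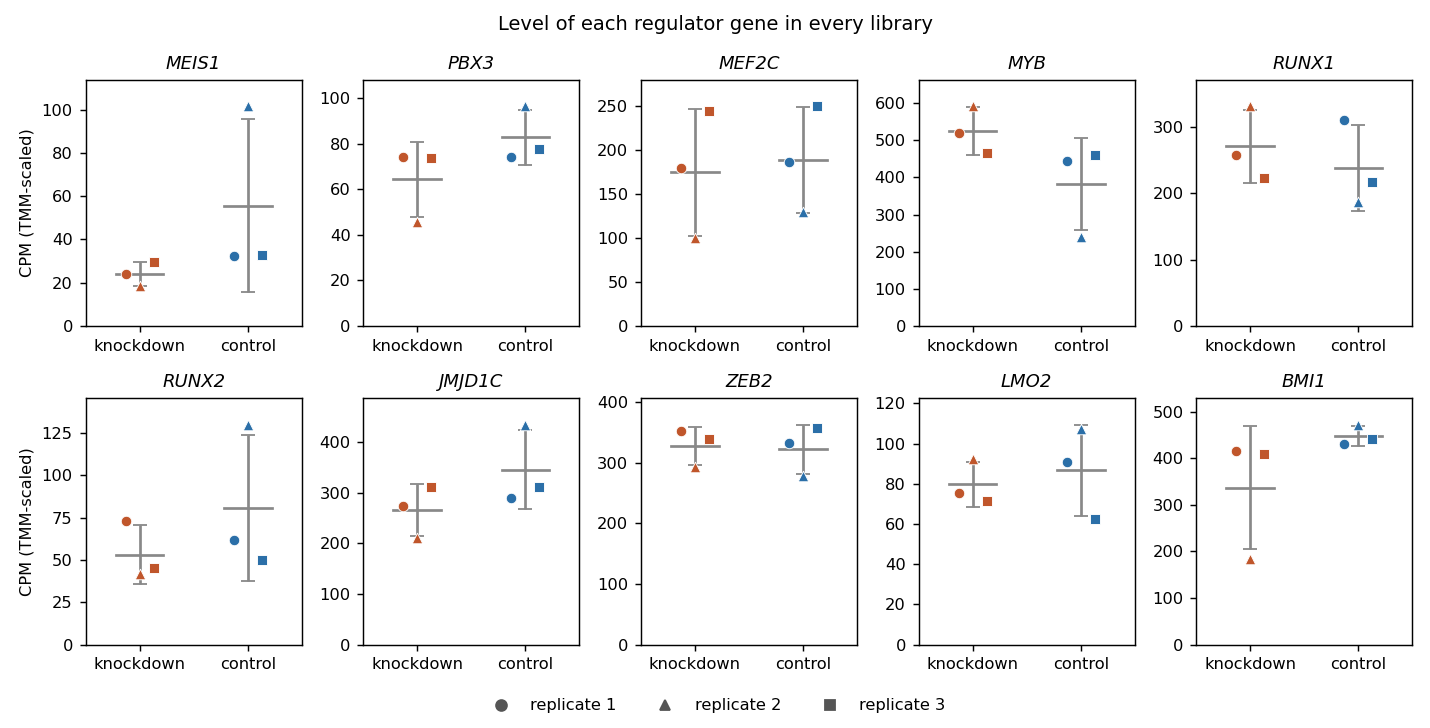
Each panel plots 1 gene, with TMM-scaled CPM on the vertical axis from 0, 3 knockdown libraries in orange and 3 control libraries in blue. Grey bars are the mean and SD (n = 3), and the blue triangle is the library labelled control 2, which holds 102 CPM of MEIS1 against 32.2 and 32.9 CPM in the other controls.

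MEIS1 encodes a TALE-class homeodomain protein that binds DNA beside HOXA9. It was at 24.1, 18.3 and 29.6 CPM in knockdown 1 to 3, and in the libraries labelled control 1 to 3 at 32.2, 102 and 32.9 CPM. The groups did not overlap, and the library labelled control 2 stood 3.12-fold above the mean of the other controls. Knockdown minus control gave a log2 difference of −1.21 (SE 0.485, 95% interval −2.34 to −0.08; edgeR adjusted p = 0.926), on means of 24.0 ± 5.64 and 55.6 ± 39.9 CPM (SD, n = 3). Without that library it was −0.435 (SE 0.24). MEIS1-AS3, an antisense row, held at most 2 counts in any library, so it could add little to the MEIS1 count.

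PBX3 encodes the TALE partner that joins HOXA9 and MEIS1 on DNA. It stood at 74.1, 45.6 and 73.8 CPM after knockdown and at 74.3, 96.6 and 77.6 CPM in the control libraries. Knockdown 2 was low and the library labelled control 2 high, while the other 4 libraries lay between 73.8 and 77.6 CPM. The log2 difference was −0.36 (95% interval −0.96 to 0.24). The value was −0.235 without the library labelled control 2 and −0.16 without knockdown 2.

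MYB, the c-Myb factor that keeps blood progenitors dividing, had the opposite order. It was at 519, 592 and 465 CPM in knockdown 1 to 3 and at 445, 240 and 462 CPM in the control libraries. Knockdown 2 was the highest and the library labelled control 2 the lowest, at a level 1.89-fold below the mean of controls 1 and 3. MYB had a log2 difference of 0.46 (SE 0.29, 95% interval −0.22 to 1.14; edgeR adjusted p = 0.926), and of 0.22 (SE 0.19) without the library labelled control 2.

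The RUNX genes, whose proteins bind DNA through a Runt domain together with CBFB, did not go the same way. RUNX1, a master factor of blood stem cell formation, stood at 259, 332 and 223 CPM after knockdown and at 311, 187 and 217 CPM in the control libraries, and the groups overlapped. Its log2 difference was 0.19 (95% interval −0.44 to 0.81), 0.04 without the library labelled control 2 and 0.02 without knockdown 2. RUNX2, best known as the factor of bone formation, stood at 73.0, 41.5 and 45.0 CPM after knockdown. In the control libraries RUNX2 was at 62.0, 130 and 49.8 CPM. The library labelled control 2 was 2.32-fold above the mean of the other controls, and knockdown 1 exceeded controls 1 and 3. The RUNX2 log2 difference was −0.60 (95% interval −1.56 to 0.36) and −0.07 without that library. RUNX1-IT1, a transcript within RUNX1, held at most 6 counts.

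MEF2C, a MADS-box factor of myeloid and lymphoid progenitors, stood at 180, 101 and 245 CPM after knockdown and at 187, 130 and 250 CPM in the control libraries. Both libraries numbered 2 were low and both numbered 3 high, so the levels followed the replicate number in either group. The log2 difference was −0.11 (95% interval −0.98 to 0.77), and −0.32 without the library labelled control 2. ZEB2, a zinc-finger repressor needed for monocyte and dendritic cell development, varied least, with its highest library 1.28-fold above its lowest. It stood at 353, 293 and 339 CPM after knockdown and at 332, 278 and 357 CPM in the controls. The ZEB2 log2 difference was 0.02 (95% interval −0.45 to 0.50), and it was −0.07 without the library labelled control 2. The antisense row ZEB2-AS1 held at most 200.8 counts against 4286 or more for ZEB2.

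LMO2 encodes a LIM-only bridging protein of the TAL1 and GATA complexes. It stood at 75.2, 92.5 and 71.3 CPM after knockdown and at 90.6, 107 and 62.4 CPM in the control libraries, with both libraries numbered 2 the highest of their group. The log2 difference was −0.12 (95% interval −0.72 to 0.48), and 0.06 without the library labelled control 2.

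Of the 2 chromatin genes, JMJD1C encodes a jumonji-domain protein of the KDM3 family and BMI1 a subunit of Polycomb repressive complex 1, which represses the CDKN2A locus in stem cells. JMJD1C stood at 274, 210 and 311 CPM after knockdown and at 289, 435 and 312 CPM in the control libraries. Its log2 difference was −0.38 (95% interval −0.97 to 0.21), and −0.18 without the library labelled control 2. BMI1 stood at 417, 184 and 410 CPM after knockdown and at 430, 473 and 442 CPM in the control libraries. Knockdown 2 was 2.24-fold below the mean of the other knockdown libraries, and the remaining 5 lay between 410 and 473 CPM. For BMI1 the log2 difference was −0.41 (SE 0.33, 95% interval −1.17 to 0.35). It was −0.37 without the library labelled control 2 and −0.115 without knockdown 2, so the BMI1 difference moved with that knockdown library.

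BMI1 shares reads with a readthrough transcript. The row COMMD3-BMI1, which joins the upstream gene COMMD3 to BMI1, held 3386 to 9247 counts, and the BMI1 row came to 82.5% to 92.3% of it in each library. Reads of BMI1 and of the readthrough cannot be told apart here. CDKN2A and CDKN2B, genes of the locus that BMI1 represses, held 0 counts in all 6 libraries. An observed count of 0 still allows an expected count of up to 3 in a library. Whether these values relate to BMI1 was not tested.

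**Figure D2:**
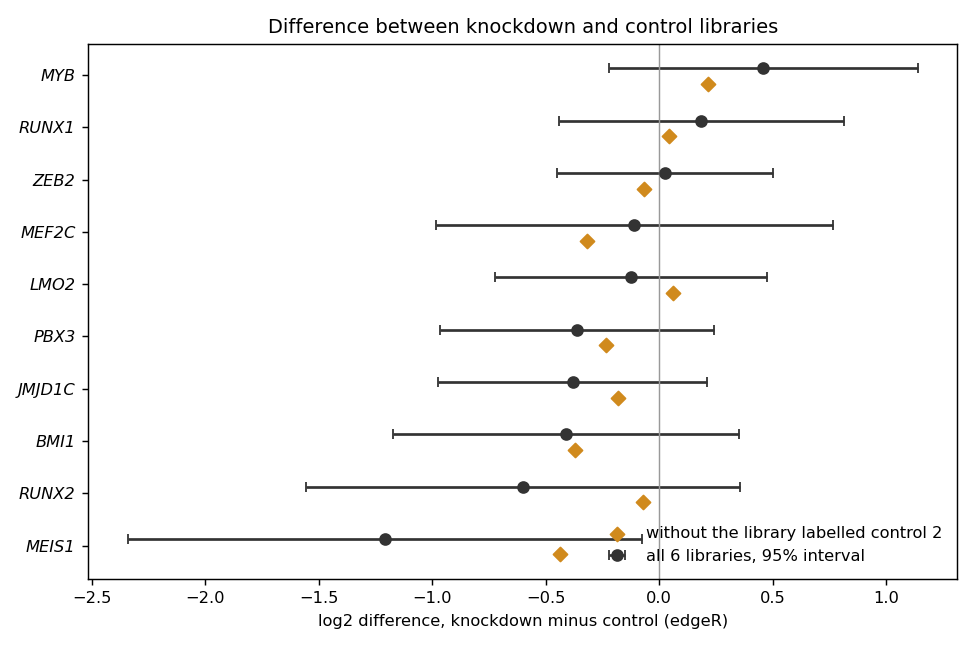
The horizontal axis gives the log2 difference of knockdown minus control for each gene. Black points with bars are edgeR estimates over 6 libraries with 95% intervals, and orange diamonds are the estimates without the library labelled control 2. The MEIS1 interval, −2.34 to −0.08, is the only one that does not cross 0, and its diamond sits at −0.435.

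Compared per length, as CPM per kilobase of merged exons in GENCODE v29, BMI1 and MYB had the highest levels, with medians over 6 libraries of 123.5 (range 53.8 to 138) and 99.7 (51.7 to 127). Their ranges overlapped. LMO2 followed at 34.3 (25.8 to 44.4), whose range did not reach that of MYB. JMJD1C at 33.1, RUNX1 at 29.2, ZEB2 at 25.1, PBX3 at 23.5 and MEF2C at 21.2 came next, and each had a range that overlapped the next one's. RUNX2 had 7.88 (5.85 to 18.3) and MEIS1 3.56 (2.12 to 11.7). MEIS1 was the lowest of the 10 in each of the 6 libraries, and its range met that of RUNX2 only through the library labelled control 2. The gene models behind the counts are not known, and merged exons overstate the length of genes with many isoforms, so nearby positions in this order are uncertain.

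**Figure D3:**
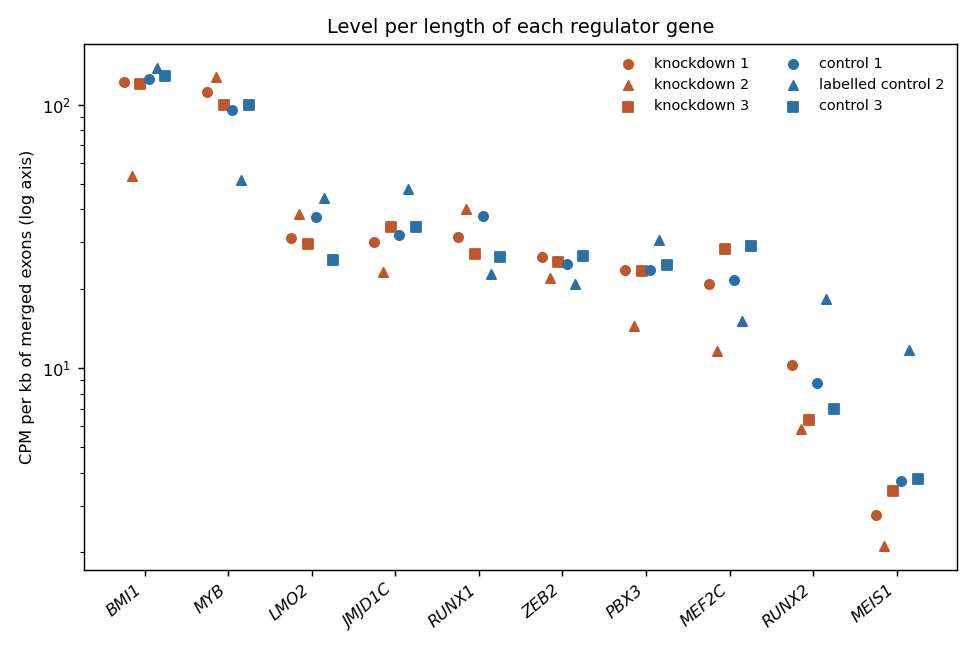
Levels of the 10 genes in CPM per kilobase of merged exons on a log axis, ordered by the median over libraries. Orange marks are knockdown and blue marks control libraries, and shapes give the replicate number. BMI1 and MYB form the top at medians of 123.5 and 99.7, and MEIS1 the bottom at 3.56.

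Libraries with the same number were also compared directly, although the labels do not say that they belong together. PRMT5 itself was lower in the knockdown library of pairs 1 and 3, at −0.365 and −1.581 on the log2 scale. In pair 2 PRMT5 was higher in the knockdown library, at 0.43, so the differences of pair 2 do not go with a lower PRMT5 level. Pair 2, knockdown 2 against the library labelled control 2, held the large differences, with 7 of the 10 genes beyond 0.5 on the log2 scale, against 57.9% of all genes. MEIS1 was at −2.47, RUNX2 at −1.65, BMI1 at −1.36, PBX3 at −1.09 and JMJD1C at −1.05 in this pair, and MYB was at 1.30 and RUNX1 at 0.83. In pair 1 none of the 10 went beyond 0.5 (29.2% of all genes did), and the values ran from −0.42 for MEIS1 to 0.24 for RUNX2. Pair 3 also had none beyond 0.5 (6.27% of all genes), from −0.15 for MEIS1 to 0.19 for LMO2. MEIS1, PBX3 and BMI1 were lower in the knockdown library of all 3 pairs and MYB was higher, which follows from their groups not overlapping. MEF2C and JMJD1C were also lower in all 3. The share of all genes with the same sign in all 3 pairs was not computed. In pairs 1 and 3, apart from MEIS1 in both, BMI1 in pair 3 and MYB in pair 1, these 6 genes were within 0.1 of 0.

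**Figure D4:**
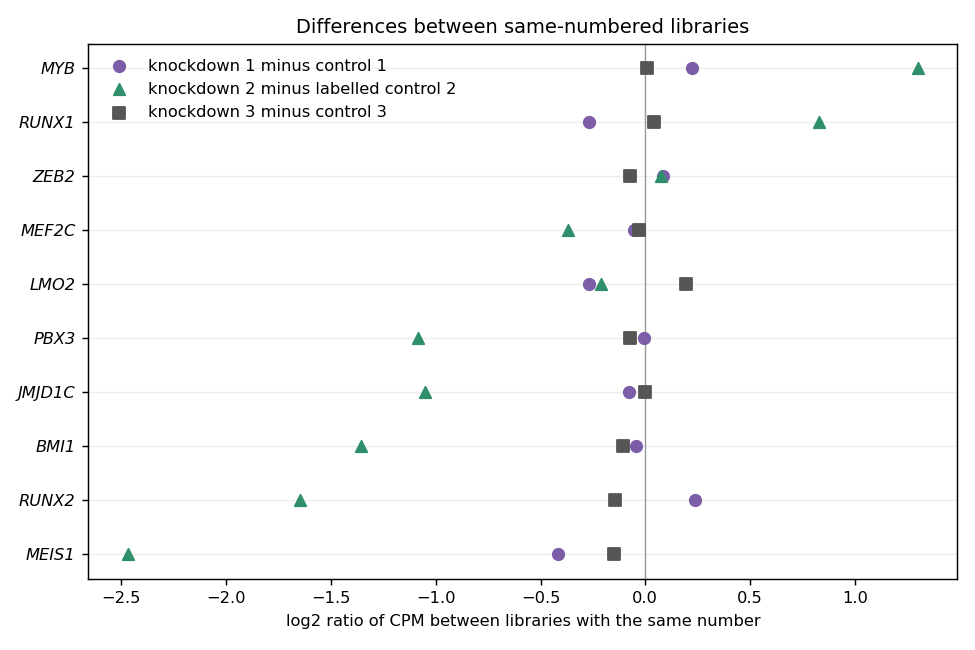
Log2 ratio of CPM between libraries with the same replicate number, 1 row per gene. Circles are pair 1, triangles pair 2 and squares pair 3. Squares and circles sit between −0.42 and 0.24, and the triangles reach −2.47 for MEIS1 and 1.30 for MYB. PRMT5, not plotted, was higher in the knockdown library of pair 2 (0.43).

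The libraries of pair 2 were also set against the others of their own groups. Against controls 1 and 3, the library labelled control 2 had log2 differences of 1.64 for MEIS1, 1.23 for RUNX2, 0.53 for JMJD1C and 0.51 for LMO2, and of −0.92 for MYB and −0.74 for MEF2C. These 6 of 10 genes were beyond 0.5, as were 59.9% of all genes. Against knockdowns 1 and 3, knockdown 2 had −1.17 for BMI1, −1.06 for MEF2C, −0.70 for PBX3 and −0.54 for MEIS1, and these 4 of 10 were beyond 0.5 where 28.6% of all genes were. RUNX1 and LMO2 had 0.47 and 0.34 in knockdown 2. Over all genes knockdown 2 did not stand apart as the library labelled control 2 did: it correlated with knockdowns 1 and 3 at 0.969 and 0.955, and those correlated with each other at 0.966.

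The pattern of MEIS1 over the libraries was set beside those of 10131 other genes averaging 5 CPM or more, by the Pearson correlation of log2 CPM. Repeated symbols and those of the LOC, open reading frame, antisense and similar kinds were left out of the 10131. All points share the 6 libraries and their scaling, and the library labelled control 2 carries most of the spread, so the values are a description. The genes most like MEIS1 were MED15, a Mediator subunit gene (r = 0.9998), GCFC1 (0.9989), ASXL1, a Polycomb-associated gene mutated in myeloid disease (0.9978), FRYL (0.9975) and EXOC1, an exocyst subunit gene (0.9971). MED15 stood at 66.5, 58.9 and 73.6 CPM after knockdown and at 75.9, 128 and 75.9 CPM in the control libraries. Without the library labelled control 2 the 5 correlations were 0.98 to 0.999 over 5 libraries. These genes were picked over 6 libraries that include those 5, so high values were largely fixed by that choice. A correlation above 0.9 with MEIS1 was found for 6.9% of the 10131 genes over 6 libraries and for 4.0% over 5.

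Among the other regulators JMJD1C came nearest to MEIS1 (r = 0.945, and 0.938 without the library labelled control 2). MYB mirrored it, at −0.998 over 6 libraries and −0.987 over the 5. The share of all genes with values this negative was not computed, so how common they are is not known. For 4 other members the value turned on that library. RUNX2 was at 0.853 with it and 0.253 without it, and the sign reversed for MEF2C (−0.06 to 0.902), ZEB2 (−0.48 to 0.751) and LMO2 (0.466 to −0.54). PBX3 was at 0.811 and 0.885, BMI1 at 0.608 and 0.887, and RUNX1 at −0.763 and −0.593.

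**Figure D5:**
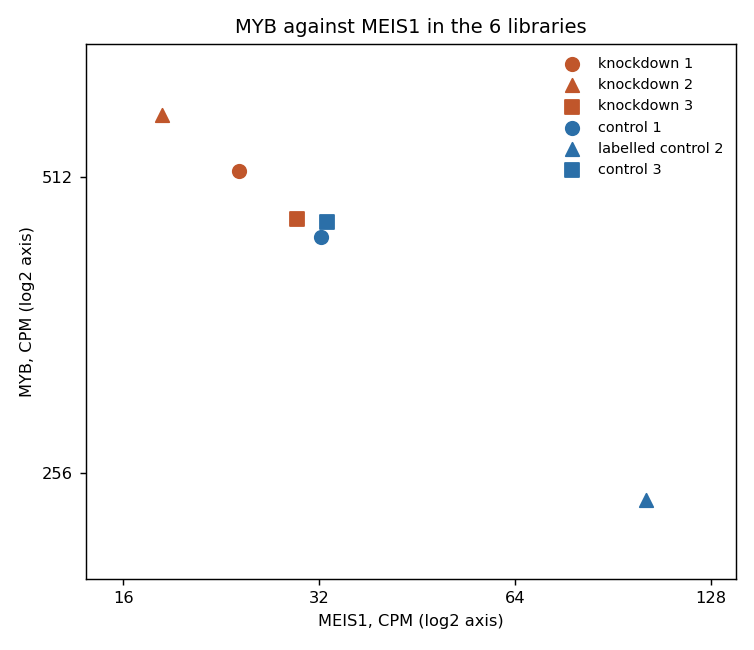
MYB against MEIS1 in CPM, both on log2 axes, 1 mark per library. Knockdown 2 is at the top left (18.3 and 592 CPM), the library labelled control 2 at the bottom right (102 and 240 CPM), and controls 1 and 3 lie beside knockdown 3.

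The machinery that activates these targets was described from a list of 16 cofactor genes of the MLL fusion. Of these, 12 were lower and 4 higher in the knockdown libraries, with none past the test and a median log2 difference of −0.11, or −0.06 without the library labelled control 2. The smallest p-values belonged to CDK9, the kinase of the elongation factor P-TEFb, with −0.57, to MLLT3, a reader of acetylated histones, with −0.66, to AFF4, the scaffold of the super elongation complex, with −0.80, and to DOT1L with −0.43. Without that library they were at −0.20, −0.18, 0.05 and −0.11. CDK9 stood at 43.4, 41.6 and 46.7 CPM after knockdown and at 53.2, 95.2 and 47.9 CPM in the control libraries, the only gene of the 16 whose groups did not overlap, where 6.24% of all tested genes had such groups. Of 8 HOXA genes 7 were lower and none passed, with a median of −0.91 that was −0.26 without the library labelled control 2. An unadjusted p under 0.05 was reached by 3 of the 8, HOXA3, HOXA4 and HOXA11 (1.77% of all tested genes), and the groups of HOXA3 and HOXA4 did not overlap (3.10% of all on the lower side). HOXA3 had the smallest p of the 8 and stood at 5.90, 5.65 and 7.52 CPM after knockdown and at 11.9, 19.4 and 8.96 CPM in the control libraries. Its log2 difference was −1.07 (edgeR adjusted p = 0.926), and −0.71 without the library labelled control 2. HOXA4 was at −1.98 and HOXA11 at −0.93, and at −0.46 and −0.50 without it. The unadjusted edgeR p without that library was 0.0399 for HOXA3, 0.263 for HOXA4 and 0.144 for HOXA11. Of 13853 genes tested without it, 103 had an unadjusted p under 0.05. The 8 HOXA genes summed to 697.6 CPM in the library labelled control 2 and to 215.7 to 291 CPM in the others.

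Partner proteins of the 10 regulators were read from 24 genes, of which 23 were tested, 12 higher and 11 lower (median 0.008, and 0.052 without the library labelled control 2; none passed). TAL1, a partner of LMO2, held at most 2 counts in any library. Others on this list were well counted, with LYL1 at 613 to 1904 counts and LDB1 at 766 to 1402 counts. PHC3, a Polycomb subunit gene, and HDAC5, whose protein represses MEF2 factors, had log2 differences of −0.77 and −0.96, and of −0.15 and −0.08 without the library labelled control 2. CREBBP, the acetyltransferase that works with MYB, was at 0.32, and at 0.17 without it. Paralogues of the 10 regulators gave 13 lower and 5 higher of 18 tested (median −0.16, and −0.14 without that library; none passed). PCGF1, a relative of BMI1, had −1.04, KDM3A, a relative of JMJD1C, −1.17, PBX2 −0.48 and LMO4 0.43. These became −0.26, −0.25, −0.15 and 0.25 without that library.

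Genes that these regulators are known to act on divided evenly, 7 higher and 7 lower of 14 tested, none past the test (median −0.11, and 0.046 without the library labelled control 2). CDKN2C, an inhibitor of CDK4 and CDK6, stood at 47.7, 45.5 and 118 CPM after knockdown and at 102, 147 and 110 CPM in the control libraries (log2 difference −0.77, and −0.59 without the library labelled control 2). ELANE, the neutrophil elastase gene, had a log2 difference of 0.66, MYC of 0.70 and ID2 of −0.47, and without that library they were at 0.37, 0.39 and −0.28. MYC was high in knockdown 1, at 1491 CPM, and at 285 to 702 CPM in the other 5 libraries. CDH1, TRIB2 and CD34 held at most 10 counts and were not tested. CSF2RA, listed at more than 1 place in the tables, was left out of these counts.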

How the data were processed

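The authors deposited 1 table of estimated counts per gene for each of 6 libraries, not scaled to depth. Per the submitters' processing notes, CASAVA 1.9, TopHat2 version 2, edgeR and hg19 were used, in roles not stated. Which counter and gene models were used, and whether strand was, is not given in the sources used here, so overlapping genes can share reads. Totals were 16408484 to 19077106 counts, without molecular identifiers. Counts were rounded and genes kept by filterByExpr (minimum count 10). The 13668 genes kept were tested in edgeR 4.0.16 (R 4.3.3) with TMM scaling, estimateDisp, glmQLFit and glmQLFTest, with group as its single term (two-sided), with Benjamini-Hochberg adjustment over all genes and a threshold of 0.05. SEs and 95% intervals come from that fit. An exact permutation of 3 against 3 cannot give a p under 0.1 and was not used. The code was tested on simulated data.

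The 10 regulators and the gene lists were chosen with earlier results of these data known. Named genes were the 10, PRMT5, up to 4 per list with the smallest p, and the 5 most like MEIS1 (log2 CPM, prior count 2). Other genes named singly were chosen after their values were seen. They are the markers CD33, SPI1, LYZ, MPO, KRT18 and COL1A1, the partners LYL1 and LDB1, and those that fell below the filter. Same-numbered libraries had deviations from the group means that correlated at 0.127, 0.394 and 0.566 over genes, each above 0.1, so they are called pairs. Knockdown 2 with control 1, of unlike numbers, was at 0.164, above the value of pair 1, and the other 5 such combinations were below 0. Deviations sum to 0 within a group, so a mix of signs among these values was fixed in advance. In log2 CPM, control 1 correlated with knockdown 1 at 0.969, with knockdown 2 at 0.976 and with knockdown 3 at 0.97. These values do not set knockdown 1 apart as its partner. The pairing comes from the values and not from the labels, and it was not tested. The fit with that number as a block was an alternative, beside other scalings and filters, DESeq2 1.42.0, limma-voom (limma 3.58.1), floored counts and libraries left out. Promoters are RefSeq's (GRCh38.p14) and exon lengths GENCODE's (v29). Neither is the build of the counts, so no coordinates of the counted genes are given.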

Additional observations from a re-analysis of the deposited data

How the results depend on the processing

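Under all 16 alternatives 0 genes passed the threshold (edgeR, DESeq2 or limma-voom, as named), and adjusted p-values of the 10 regulators stayed between 0.524 and 1. An unadjusted p under 0.05 was reached by 33 genes without knockdown 1 and by 1307 without control 3. MEIS1, PBX3, MYB, JMJD1C and BMI1 kept their direction in each alternative. Many alternatives reuse the same libraries, and the share of all genes that kept theirs was not computed. Without both libraries numbered 2, PBX3 was at −0.0403 (SE 0.181) and JMJD1C at −0.0397 (SE 0.19). In the same setting BMI1 was at −0.0779 (SE 0.182) and MYB at 0.118 (SE 0.189). Each of these values was smaller in size than its SE. Leaving out 1 library at a time gave −1.48 to −0.435 for MEIS1, −0.48 to −0.16 for PBX3, 0.22 to 0.62 for MYB, −0.51 to −0.18 for JMJD1C and −0.60 to −0.115 for BMI1. It gave −0.91 to −0.07 for RUNX2 and 0.02 to 0.42 for RUNX1. ZEB2 ran from −0.069 to 0.11, and turned lower when knockdown 1 (−0.035), knockdown 3 (−0.000571) or the library labelled control 2 (−0.069) was left out. MEF2C ran from −0.43 to 0.17, and turned higher without knockdown 2 (0.17) and without control 3 (0.15). LMO2 ran from −0.31 to 0.062 and turned higher without the library labelled control 2 (0.062). Without both libraries numbered 2, RUNX1 was at −0.13 and RUNX2 at 0.078, both turned, and MEIS1 was at −0.28. The cause was not tested.

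With the replicate number as a block no call changed: 0 genes passed in edgeR (436 at an unadjusted p under 0.05), the median of the 10 genes was −0.26, and MEIS1 and MYB were at −0.98 and 0.51. The number of the 10 genes whose groups did not overlap, an alternative count added after seeing the data, was 3 or 4 over the scalings and filters (5.95% to 6.41% of all genes) and 4 to 6 with libraries left out (9.98% to 26.7% of all genes). Apart from rescaling, leaving a library out cannot lower this number. A median SE of 0.33 on the log2 scale limits what these 6 libraries can show.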
